A study of Caenorhabditis elegans with 2 samples.

Results

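The nuclear tRNA genes of Caenorhabditis elegans were examined for the chromatin protein SOX-2. Taken as every gene of tRNA biotype on chromosomes I to V and X in the Ensembl annotation, they numbered 612 of 46890 nuclear genes. Each was paired with the nearest peak summit within 500 bp in a list of ranked peaks that was made from both replicates of the study. Chromosome X held 276 of the genes, and chromosomes I to V held 66, 57, 64, 71 and 78.

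The data were chromatin immunoprecipitation sequencing (ChIP-seq) peak lists from whole late embryos of strain RW12244, aged 3.5 hours and synchronised by egg bleaching. In that strain, written st12244[sox-2::TY1::EGFP::3xFLAG] X., CRISPR inserted a TY1, EGFP and FLAG tag at the sox-2 locus itself. Chromatin was sonicated to 200 to 800 bp, and the tagged protein was precipitated through its GFP. The 2 biological replicates, numbered 1 and 2, formed the only group. No other strain, stage or untagged control was analysed here, and a whole embryo mixes all its cell types.

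Transfer RNAs carry amino acids to the ribosome, and genes that charge the same amino acid form an isotype, which is split further by the anticodon. RNA polymerase III transcribes these genes from promoter elements inside the gene itself, the A box near the start and the B box further on, which the factor TFIIIC reads before TFIIIB settles upstream. SOX-2 is a factor with a DNA-binding HMG box, and proteins of its family are known from neural progenitor cells.

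The sequences below are those of 9 genes, shown because they carry the strongest summits, stand for several isotypes or depart from the usual promoter. They are read 5′ to 3′ from the RefSeq genome of build WBcel235, the same assembly as ce11, with the A box (TNGNNNANNNG) and the B box (GTTCNANNC) on the gene strand in capitals.
C04A11.t1, Leu-CAA, X:13665555-13665673, plus strand: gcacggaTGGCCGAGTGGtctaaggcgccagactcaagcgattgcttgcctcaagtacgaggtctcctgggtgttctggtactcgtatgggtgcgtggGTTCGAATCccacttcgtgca
F15G9.t1, Ala-TGC, X:9743589-9743660, plus strand: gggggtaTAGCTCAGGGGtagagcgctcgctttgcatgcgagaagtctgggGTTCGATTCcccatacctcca
F28H6.t1, Arg-CCT, X:14115691-14115763, plus strand: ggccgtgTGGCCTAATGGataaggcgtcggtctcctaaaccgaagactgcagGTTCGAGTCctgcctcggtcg
R04D3.t2, Val-TAC, X:13307034-13307106, plus strand: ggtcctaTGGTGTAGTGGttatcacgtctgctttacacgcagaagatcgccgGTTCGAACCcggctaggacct
F57F5.t1, Ile-TAT, V:12002176-12002260, plus strand: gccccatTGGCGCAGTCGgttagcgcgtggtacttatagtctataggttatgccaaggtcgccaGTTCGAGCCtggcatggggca
ZK899.t1, Pro-TGG, X:9467729-9467800, minus strand: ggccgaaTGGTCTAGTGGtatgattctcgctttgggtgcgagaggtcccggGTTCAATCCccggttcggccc
ZK563.t1, Thr-AGT, X:3371422-3371493, minus strand: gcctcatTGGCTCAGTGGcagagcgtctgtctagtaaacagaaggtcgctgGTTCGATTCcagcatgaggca
R04A9.t1, Gln-TTG, X:410391-410462, plus strand: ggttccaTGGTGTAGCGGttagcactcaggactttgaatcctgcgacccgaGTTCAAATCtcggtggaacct
K11H12.t1, Sec-TCA, IV:658181-658266, plus strand: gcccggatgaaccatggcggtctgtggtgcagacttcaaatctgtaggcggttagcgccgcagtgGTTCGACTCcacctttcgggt

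The A box pattern was found within the first 40 bases of 596 of 612 genes (97.4%), against 19.7% of nuclear genome windows of 72 bp, the median gene length. The B box pattern was found in 587 genes (95.9%), against 1.23% of those windows. Both patterns were searched on the gene strand, and in the windows on the forward strand. The A box began at base 8 and the B box at base 53 in the median gene. Gene lengths ran between 64 and 122 bp.

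tRNA genes had SOX-2 summits in a larger share than other nuclear genes. A ranked summit, one in the full list of 8504 peaks before any threshold, lay within 500 bp of 325 of 612 tRNA genes (53.1%, 95% Wilson interval 49.1 to 57.0), against 17.2% of 46278 other nuclear genes. A thresholded summit, one at an irreproducible discovery rate (IDR) of at most 0.01 between repeat rankings, lay there at 135 tRNA genes (22.1%, 19 to 25.5), against 2.08% of the other genes. With no control or untagged library analysed here, signal from SOX-2 and signal that tRNA genes give in any such precipitation cannot be told apart. The intervals treat genes as separate counts and cover counting error only. Neighbouring genes can share a summit, so the 135 genes stood on 118 distinct thresholded summits. In all, 289 ranked summits lay within 500 bp of a tRNA gene.

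Where a tRNA gene had a ranked summit, it lay inside the gene at 170 genes and beside it at the others. Of these others, the summit lay 1 to 100 bp away at 100 genes and 101 to 500 bp away at 55. Among genes with none in the window, the nearest was 501 to 1000 bp away at 38 and farther than 1000 bp at 249. Just inside the window were the Gln gene H08J11.t4 at 485 bp (signal 77.0), the His gene F28H6.t2 at 491 bp (36.7) and C10G8.t1 at 498 bp (38.7). Just outside it were F49E7.t1 at 534 bp (42.7), F59C12.t1 at 542 bp (76.4, thresholded) and C05C9.t2 at 543 bp (41.95). The signal is the authors' own value for each peak, and its scale is not stated in the labels or headers.

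Summits at tRNA genes were also stronger than summits elsewhere. Of the 289 ranked summits at tRNA genes 118 were thresholded (40.8%, 35.3 to 46.6), against 6.61% of the 8197 nuclear ranked summits farther than 500 bp from any tRNA gene. Their median pooled signal was 68.6, against 40.5 at the other ranked summits. Among thresholded summits alone the medians were 130.2 at tRNA genes and 99.7 elsewhere. No test was made of these or later differences, because the study has 1 group and its peaks come from the same libraries.

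The shares of snoRNA, snRNA and miRNA genes lay between those of tRNA genes and those of other nuclear genes, 17.2% ranked and 2.08% thresholded. snoRNA genes, whose products guide the modification of ribosomal RNA, had a ranked summit at 36.1% of 346 genes and a thresholded one at 15%. For snRNA genes, the templates of the spliceosomal RNAs, the shares were 21.7% and 9.30% of 129. For miRNA genes they were 19.2% and 3.83% of 261, and for the 5′ ends of 19973 protein-coding genes they were 11.8% and 1.38%. The interval of the miRNA ranked share, 14.8 to 24.4, held the 17.2% of other nuclear genes. Not every RNA class kept this order. Long intergenic RNA genes had 28.4% ranked and 2.06% thresholded of 194, and ribosomal RNA genes 5% and 0% of 20. Leaving out genes with a tRNA gene near them gave 15% thresholded for snoRNA, 8.73% for snRNA and 3.97% for miRNA genes.

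Thresholded summits sat near the start of the gene, most of them over or just past the A box. Measured along the gene strand from its first base, the 118 thresholded summits had a median offset of 21.5 bp, with quartiles at 9 and 32 bp. Inside the gene lay 96 of them (81.4%, 73.4 to 87.4), 15 lay upstream and 7 downstream. When each gene was divided into 3 equal parts, 54 of these summits fell in the first part, 39 in the middle part and 3 in the last. The last part, where the B box lies, held few. Peaks were broad against this scale, with a median width of 284 bp. Many had exactly this width with the summit at the centre, so it may be a set width and not a measured one. Summits below the threshold were scattered more widely, with a median of 19 bp, quartiles at -12 and 61.5 bp, and 74 of 171 inside the gene (43.3%).

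**Figure D1:**
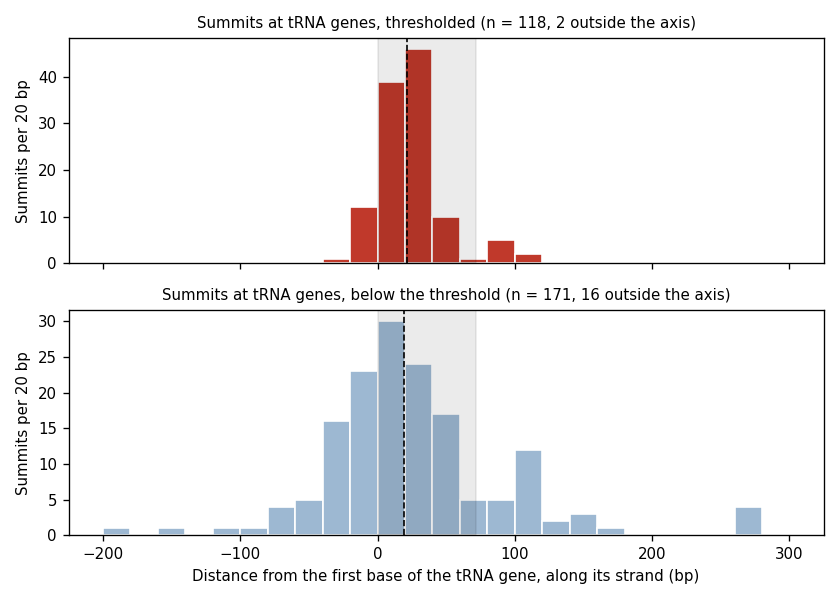
Number of summits per 20 bp (vertical axis) by distance from the first base of the tRNA gene in bp along its strand (horizontal axis), for thresholded summits above and summits below the threshold beneath. The grey band is the median gene length of 72 bp and the dashed line the median offset, 21.5 bp for thresholded and 19 bp for the other summits, and the thresholded summits are the more tightly gathered.

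The position was the same away from protein-coding promoters. Of the 118 thresholded summits 20 lay within 500 bp of a protein-coding 5′ end. The other 98 had the same median offset of 21.5 bp, with 79 inside the gene (80.6%). By distance to the nearest protein-coding 5′ end, a thresholded summit was found at 19.2% of tRNA genes within 500 bp, 20% at 501 to 1000 bp, 26.2% at 1001 to 2000 bp and 21.9% beyond 2000 bp.

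The SOX core motif, CATTGT or CTTTGT on either strand, was rare at these summits. Within 50 bp of the summit 3 of 118 thresholded summits at tRNA genes held it (2.54%, 0.868 to 7.21), against 24.0% of 542 thresholded summits elsewhere. Below the threshold it was 9 of 171 at tRNA genes (5.26%), against 16.6% of 7655 elsewhere. Windows of the same 101 bp across the nuclear genome held it in 11.2%. Among ranked summits at tRNA genes, 2 of 170 inside a gene held it (1.18%), against 10 of 119 beside one (8.40%). The 3 thresholded summits with the motif, named after their values were seen, were at the His gene W09G10.t1 on chromosome II (signal 196.8), the Ala gene K02A4.t2 on X (179.7) and the Lys gene T23F1.t1 on V (138.4). A window on a tRNA gene is filled largely by the gene's own conserved letters, and no match says only that these letters are not in it.

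Genes that lacked the A box had nearly no summits. Of 16 such genes 1 had a ranked summit (6.25%, 1.11 to 28.3) and none a thresholded one, against 54.4% and 22.7% of the 596 genes with the box. The 1 exception was K11H12.t1 on chromosome IV, the single Sec gene, whose product inserts selenocysteine at a UGA codon. Its summit had a pooled signal of 43.5, with 19.2 in replicate 1 and 25.6 in replicate 2, and lay 67 bp upstream of the gene. Of the 16 genes 14 occurred in 1 copy, and 2 Ser genes, Y51H4A.t2 and Y51H4A.t6, in 2.

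Genes without the exact B box pattern did have summits. Of 25 such genes 12 had a ranked summit and 5 a thresholded one (20%), against 22.1% of the genes with the pattern. These 5 genes stood on 4 summits. Among them were the Met genes F22F1.t6 (signal 207.8), T15B12.t1 (150.8) and Y22D7AL.t3 (141.0). The summit of Y22D7AL.t3 lay inside its neighbour, the Glu gene Y22D7AL.t4. The others, the Pro genes C16B8.t2 and C16B8.t3, shared a summit of 170.7, which lay outside both, 16 bp from C16B8.t2. The 14 genes whose anticodon differed from their RefSeq isotype or that had no RefSeq isotype had 4 ranked summits and no thresholded one. A run of 4 T within 30 bp after the gene, the usual stop signal of RNA polymerase III, was found at 605 genes. No matching share for other sites is given here. Of the other 7 genes 2 had a ranked summit and none a thresholded one (0 to 35.4). That interval held the overall share of 22.1%.

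Chromosome X stood out in the strength of its summits, not in their number. A ranked summit lay at 148 of 276 tRNA genes on X (53.6%, 47.7 to 59.4), against 177 of 336 on the autosomes (52.7%, 47.3 to 58.0). The thresholded share was 80 of 276 on X (29.0%, 24.0 to 34.6), against 55 of 336 on the autosomes (16.4%, 12.8 to 20.7). In the replicates' own thresholded lists it was 24.6% on X and 14.3% on the autosomes in replicate 1, and 25.4% on X and 16.7% on the autosomes in replicate 2. The median pooled signal at genes with a ranked summit was 82.6 on X and 61.9 on the autosomes.

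Summits away from tRNA genes did not show this. Counted as distinct summits, 67 of 123 at tRNA genes on X were thresholded (54.5%, 45.7 to 63.0), against 51 of 166 on the autosomes (30.7%, 24.2 to 38.1). For summits farther than 500 bp from a tRNA gene the shares were 6.69% on X and 6.59% on the autosomes, and the median signals 40.7 on X and 40.4 on the autosomes. The autosomes were not alike. On chromosome III 20 of 64 genes had a thresholded summit (31.3%, 21.2 to 43.4), as large a share as on X, through 17 summits. On I, II, IV and V the shares were 13.6%, 15.8%, 11.3% and 11.5%, and their intervals overlapped each other.

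**Figure D2:**
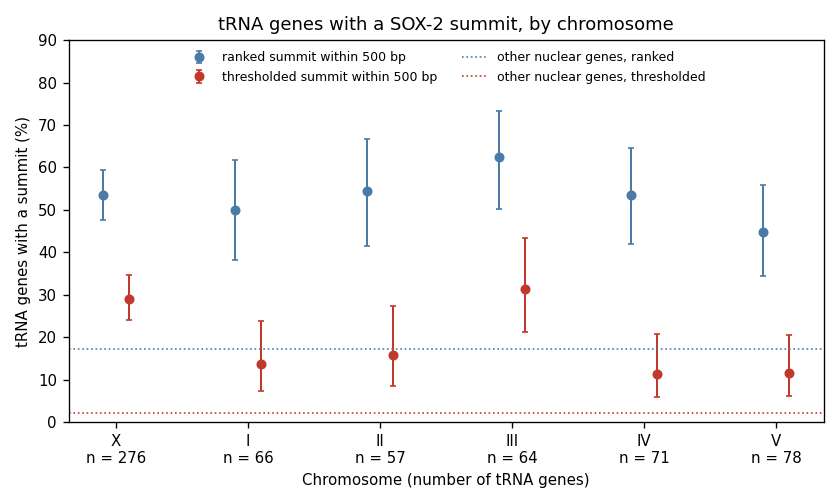
Share of tRNA genes with a summit within 500 bp in percent (vertical axis) on chromosome X and each autosome (horizontal axis), with 95% Wilson intervals as bars and the shares of other nuclear genes as dotted lines. Ranked shares lie between 44.9% and 62.5%, while thresholded shares are 29.0% on X and 31.3% on III and between 11.3% and 15.8% on the rest.

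Along X the share was highest at the left. When each chromosome was divided into 3 equal lengths, 25 of 51 genes in the left part of X had a thresholded summit (49.0%, 35.9 to 62.3), against 17.5% of 80 genes in the left parts of the autosomes. In the middle part it was 22.4% on X and 20% on the autosomes, and in the right part 26.3% on X and 13.0% on the autosomes. The 25 genes stood on 22 summits. In the left part both replicates alone gave 43.1% on X, with autosomal shares of 13.8% in replicate 1 and 20% in replicate 2. The strongest summit there was at the Ile gene C42D8.t1 (signal 235.5), followed by the Ser gene E03E2.t1 (208.2) and the Asp gene F38G1.t2 (188.7).

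Every standard isotype was marked, and at similar shares. All 20 had at least 1 gene with a thresholded summit, and the interval of each held the overall share of 22.1%. The highest shares were Cys with 5 of 13 genes (38.5%, 17.7 to 64.5), Glu with 12 of 41 (29.3%), Val with 9 of 31 (29.0%), Ile with 8 of 29 (27.6%) and Ala with 9 of 34 (26.5%). The lowest were Thr with 5 of 34 (14.7%, 6.45 to 30.1), Gln with 4 of 27 (14.8%) and Asn and His, each with 3 of 20 (15%). With 12 to 55 genes an isotype, differences of this size lay within counting error. By anticodon, 43 of 47 had a gene with a thresholded summit among genes whose anticodon matched their isotype.

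By ranked share only Cys was set apart from the share of all tRNA genes. All 13 Cys genes had a ranked summit (77.2 to 100), through 10 summits, and Cys was the isotype whose interval did not hold the overall 53.1%. Asn was lowest with 7 of 20 (35.0%, 18.1 to 56.7), and Ser followed with 15 of 39 (38.5%, 24.9 to 54.1). The 13 distinct summits nearest to Ser genes had a median signal of 76.0, against 68.9 over the 282 nearest to all tRNA genes, and ran between 35.3 and 208.2. The His genes had the least unique surroundings, with a mean of 77.2% of the 36-mers in their flanks found once in the genome. Their 10 summits had a median signal of 61.1.

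**Figure D3:**
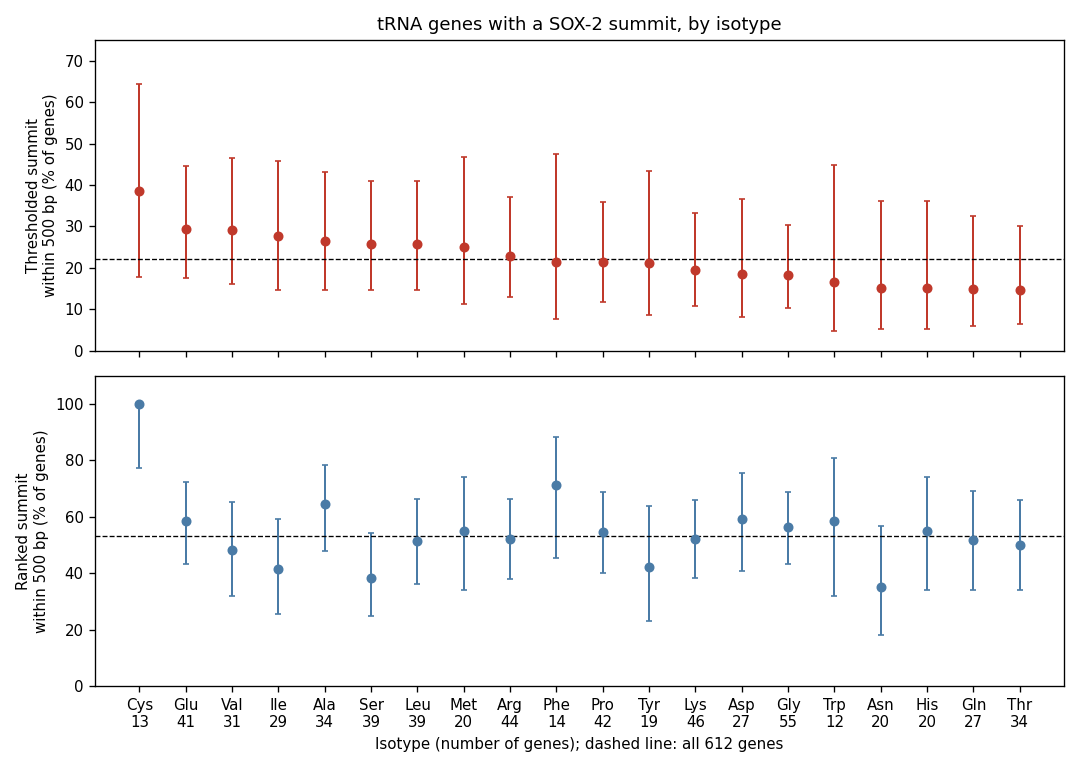
Share of genes with a thresholded summit (upper panel) and with a ranked summit (lower panel) within 500 bp in percent (vertical axes) for the 20 standard isotypes (horizontal axis, with the number of genes), with 95% Wilson intervals as bars and the share of all 612 genes as a dashed line. Every interval in the upper panel crosses the line at 22.1%, and in the lower panel Cys lies above the line at 53.1%.

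The thresholded share was the higher one on X in most isotypes. It was higher on X in 16 of 20, equal in 1 and lower in the others, while the ranked share was higher on X in 8 of 20. Among Gly genes 7 of 20 on X and 3 of 35 on the autosomes had a thresholded summit (35.0% and 8.57%). Among Pro genes these were 7 of 20 on X and 2 of 22 on the autosomes (35.0% and 9.09%), and among Ala genes 6 of 13 and 3 of 21 (46.2% and 14.3%). Arg genes went the other way, with 4 of 27 on X and 6 of 17 on the autosomes (14.8% and 35.3%). The counts in each isotype are small, and their intervals were wide.

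The strongest summit of all 612 genes was at C04A11.t1, a Leu gene with anticodon CAA that contains an intron and occurs in 1 copy. Its pooled signal was 288, with 129.9 in replicate 1 and 154.8 in replicate 2 (142.3 ± 17.6, SD, n = 2), and its summit lay 21 bp into the gene. It was rank 10 of the nuclear thresholded summits. The replicate lists have their own scale, with lower values than the pooled list.

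The next strongest were spread over many isotypes. The Ala gene F15G9.t1 in an intron of him-4, which codes for the matrix protein hemicentin, had a pooled signal of 246 (135.3 in replicate 1 and 112.1 in replicate 2), and the summit lay near a second Ala gene, F15G9.t2. The Lys gene W03G11.t1 had 243 (116.6 in replicate 1 and 129.8 in replicate 2), and the Arg gene F28H6.t1 had 242 (139.3 in replicate 1 and 105.0 in replicate 2). These 3 lie on X. C33G3.t2, a Lys gene with the other anticodon, TTT, had 239.7 (113.1 in replicate 1 and 125.4 in replicate 2), and C42D8.t1, an Ile gene, had 235.5 (136.9 in replicate 1 and 88.9 in replicate 2). In an intron of snx-17, a sorting nexin gene, the Gly gene F17H10.t1 had 229 (114.4 in replicate 1 and 106.1 in replicate 2). Among these genes the replicates lay farthest apart at C42D8.t1.

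Among those that follow, replicates differed most at the Asn gene F41D9.t3 in sulp-3, an anion transporter gene, with a pooled signal of 214 and 143.5 in replicate 1 against 68.6 in replicate 2. The Val gene R04D3.t2 had 216 (113.3 in replicate 1 and 96.5 in replicate 2). On chromosome II, the Ile gene T21B4.t1 in the collagen gene col-85 had 213.8 (108.8 in replicate 1 and 105.4 in replicate 2), and on V the Ile gene F57F5.t1, with anticodon TAT and an intron, had 210.2 (99.6 in replicate 1 and 106.2 in replicate 2). Both autosomal Ile genes had nearly equal replicates. The Ser gene E03E2.t1 in cat-1, the gene of the vesicular monoamine transporter, had 208 (120.3 in replicate 1 and 86.4 in replicate 2). The Met gene F22F1.t6 had 208 (106.0 in replicate 1 and 107.1 in replicate 2), and the Tyr gene C02B4.t2 in the nuclear receptor gene nhr-17 had 207 (111.9 in replicate 1 and 98.1 in replicate 2). The Cys gene C37A2.t1 in cye-1, the cyclin E gene, had 206 (112.8 in replicate 1 and 100.4 in replicate 2). Of these 15 genes 12 lay on X, and at all 15 the summit lay inside the gene and was thresholded in both replicates' own lists.

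The remaining isotypes had their strongest genes somewhat lower. For His it was C06G1.t1 (pooled signal 197.8, 99.5 in replicate 1 and 96.5 in replicate 2) and for Pro ZK899.t1 (196.8, 112.6 in replicate 1 and 82.9 in replicate 2). Trp was led by B0523.t1 on chromosome III (188.8), whose replicates were nearly identical at 95.1 in replicate 1 and 94.9 in replicate 2. Glu was led by C28G1.t1 (188.3), whose replicates were far apart at 131.6 in replicate 1 and 57.2 in replicate 2. The Thr gene R01H5.t1 had 186.1 and the Phe gene T28B4.t1 161.3. The strongest Gln gene, R04A9.t1, was the weakest of these leaders at 111.4, with 52.9 in replicate 2, while replicate 1 had no summit within 100 bp of it. Asp was led by F22F1.t5, which lies 372 bp from the summit of F22F1.t6 and shares its value. With isotypes of unequal size, the strongest of many genes is not comparable with the strongest of few.

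Some high values were not thresholded. The Arg gene F47G6.t1 on chromosome I had a pooled signal of 137.4, with 66.2 in replicate 1 and 63.0 in replicate 2, but an IDR of 64.7%. It was the strongest summit at a tRNA gene below the threshold. The same summit was in a second, conservative thresholded list of the authors, of 651 peaks, and passed in replicate 2's own thresholded list. Of the 171 summits at tRNA genes below the threshold 13 were in that conservative list. Of 96 nuclear ranked summits that pass the IDR value and are missing from the thresholded list, 1 lay at a tRNA gene, the Phe gene Y95D11A.t1 (signal 71.2, IDR 0.465%).

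The replicates' thresholded lists marked largely the same tRNA genes. Of the 118 thresholded summits at tRNA genes 80 were in both of these lists (67.8%), against 49.4% of 542 thresholded summits elsewhere. Both sets had already passed an IDR threshold on these same libraries. Those at tRNA genes were also the stronger ones (median pooled signal 130.2 against 99.7). The 2 shares therefore cannot be read apart from strength. In their own thresholded lists, replicate 1 had a summit within 500 bp of 116 tRNA genes and replicate 2 of 126, and 94 genes were in both. Of the 135 genes thresholded in the pooled list, 94 passed in both replicates, 14 in replicate 1 alone, 22 in replicate 2 alone and 5 in neither. In the longer ranked lists, 387 genes had a summit in replicate 1 and 418 in replicate 2, with 334 in both and 141 in neither. These lists hold 23706 and 24418 peaks. For neither the thresholded nor the ranked lists of single replicates was the matching share of other genes computed. The counts from these lists therefore do not set tRNA genes apart from other genes.

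Signals of the replicates followed each other across tRNA summits. Of 289 ranked summits 241 had a summit within 100 bp in both replicate lists. Their Spearman rho was 0.804, and Pearson's r of the log2 signals was 0.811. Over the 114 thresholded summits so paired rho was 0.698, and over the 127 below the threshold 0.291. The IDR itself scores how well repeat rankings agree, so these 2 values cannot be compared as a result. These are descriptions across summits of the same 2 libraries. At the thresholded summits the median signal was 68.2 in replicate 1 and 61.9 in replicate 2, and the median difference was 0.27 on the log2 scale in either direction.

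**Figure D4:**
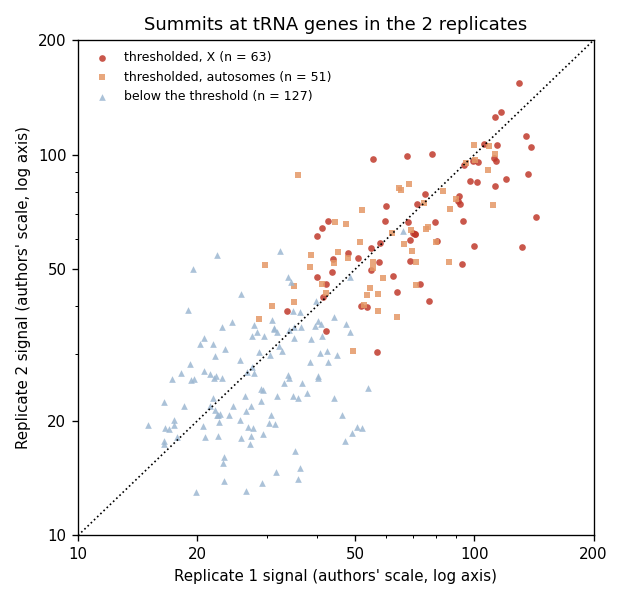
Signal of each tRNA summit in replicate 1 (horizontal log axis) and replicate 2 (vertical log axis), each on the authors' scale, for thresholded summits on X (circles), on the autosomes (squares) and summits below the threshold (triangles). The dotted line marks equal values, and the 114 thresholded summits reach higher values than the 127 others, with some overlap: F47G6.t1, below the threshold, lies at 66.2 and 63.0, and F43C9.t1, thresholded, at 33.7 and 38.9.

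Clustered tRNA genes, those with another tRNA gene within 1000 bp, had a smaller thresholded share than single ones. The share was 37 of 236 clustered genes (15.7%, 11.6 to 20.9), through 20 summits, against 98 of 376 single genes (26.1%, 21.9 to 30.7), each on its own summit. The ranked shares were 51.7% of clustered and 54.0% of single genes. The median signal was 60.5 at clustered and 74.0 at single genes. On X the thresholded shares were 20.7% of clustered and 36.9% of single genes, and on the autosomes 8.91% of clustered and 19.6% of single genes. With clustering defined at 500 bp the difference shrank to -2.85 percentage points. The flanks of clustered genes were also less unique, with a mean of 90.8% of their 36-mers found once in the genome, against 97.0% for single genes, and its part in the difference was not tested. Among the genes whose flanks of 250 bp held no repeated 36-mer, an alternative added after seeing the data, the difference was -13.2 percentage points.

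Of the 100 clusters 20 had a thresholded summit, and the 8 clusters of at least 4 genes differed widely. The 6 genes F22F1.t2 to F22F1.t7 at X:8154445-8156707, of isotypes Ser, Asp, Met and Ile, included the strong summit at F22F1.t6 and held 3 genes with a thresholded summit within 500 bp. The 6 His genes of F28H6 at X:14135045-14137010 had 2 weak summits, of 34.6 and 36.7, and none was thresholded. The 4 Tyr genes of R11 at X:16208263-16209852 had 1 summit, thresholded, of 158.7. These 3 clusters span the range seen. The 5 genes of K01A12 on X, of isotypes Arg and Cys, shared 1 summit of 39.1, and the 5 Gln genes of H08J11 on X had 1 of 77.0, neither thresholded. Clusters of 4 at T01B4 (Val, X), Y65A5A (Ala, Val and His, chromosome IV) and C12C8 (Gly, chromosome I) had highest signals of 46.1, 76.1 and 61.9, all below the threshold.

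Intronic and intergenic tRNA genes had shares whose intervals overlapped. Of 283 intronic tRNA genes 57 had a thresholded summit (20.1%, 15.9 to 25.2), against 77 of 319 intergenic ones (24.1%, 19.8 to 29.1), and ranked shares were 54.1% and 52.7%. Among single genes the thresholded shares were 26.0% of intronic and 26.9% of intergenic genes. Among clustered genes they were 6.90% of 87 intronic and 20.9% of 148 intergenic genes. On X the shares were 23.2% of intronic and 31.7% of intergenic genes, while on the autosomes they were 18.6% of intronic and 14.4% of intergenic genes. Intronic genes read opposite to their host had 22.1% of 122, and those in its direction 18.6% of 161. The 10 genes that overlap an exon had 1 thresholded summit, and the 29 tRNA genes with an intron of their own had 27.6%, against 21.8% of those without.

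Identical copies of a tRNA gene mostly differed in whether they had a summit. The 612 genes have 200 distinct sequences, 143 of them in 1 copy. In 32 families of at least 5 identical copies, which hold 402 genes, 228 genes had a ranked summit and 91 a thresholded one. Copies with and without a ranked summit occurred in 31 of the 32 families. At a ranked share of 53.1% over all tRNA genes, most families of at least 5 copies would be mixed in any case. Where copies had summits, the strongest was 3.95 times the weakest in the median family.

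Single families show the spread. Of 29 Gly copies with anticodon TCC 18 had a ranked summit, between 44.6 and 176.7 in pooled signal, and 5 a thresholded one. Of 24 Pro copies, all with the letters of ZK899.t1 printed above, 12 had a ranked summit, between 47.3 and 196.8, and 12 had none. All 12 copies of the Cys gene C37A2.t1 had one, between 39.1 and 205.8, with 5 thresholded. Neighbouring genes shared some summits, so the values are not 1 per copy. The Cys copies K01A12.t2, K01A12.t4 and K01A12.t5 shared the summit of 39.1. The Cys copy R04E5.t5 shared 1 of 63.2 with the Gly gene R04E5.t4. These families show that the same letters lay within 500 bp of strong summits, of weak ones and of none. Of 15 Glu copies with anticodon TTC 6 had a thresholded summit, the strongest at C28G1.t1. Of the 10 Arg copies with anticodon ACG, all on X, 8 had a ranked summit, between 35.7 and 89.2, and none a thresholded one. Of 11 Ser copies with anticodon AGA 3 had a ranked summit, and 2 of these were thresholded.

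**Figure D5:**
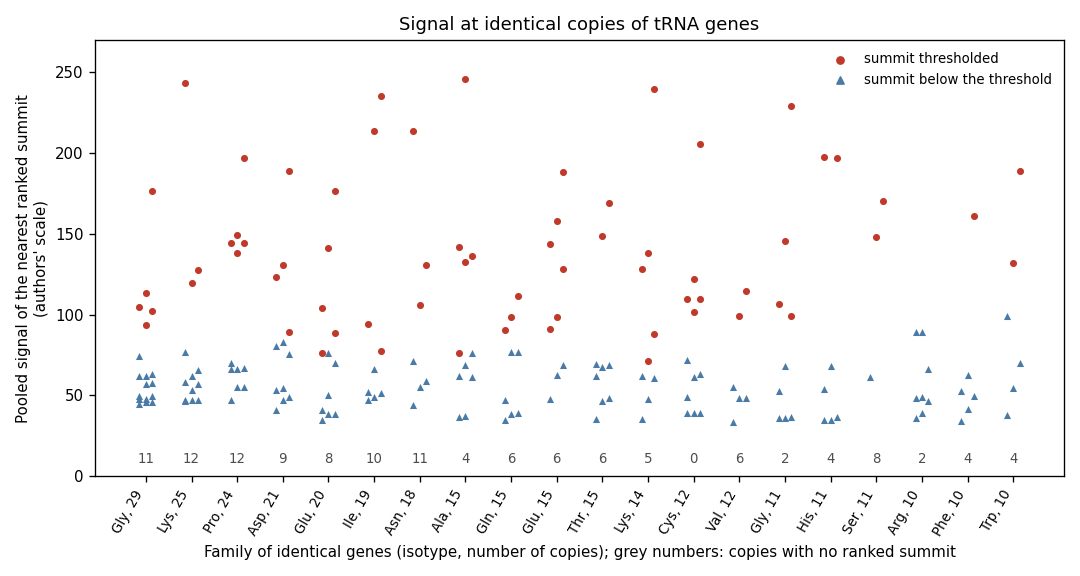
Pooled signal of the nearest ranked summit on the authors' scale (vertical axis) for each copy in the families of at least 10 identical tRNA genes (horizontal axis, isotype and number of copies), with circles for thresholded summits, triangles for summits below the threshold and grey numbers for copies with no ranked summit. In the Pro family of 24 copies 12 have no summit and the others reach 196.8, and the Cys family of 12 has none without. Neighbouring genes can share a summit and then have the same value.

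The shares also differed by copy number, in no steady order, and by how unique the surrounding sequence was. The thresholded share fell steadily as the flanks became less unique, on X and on the autosomes alike, while the ranked share did not. By copies the thresholded share was 16.1% of 143 genes in 1 copy, 31.3% of those in 2 to 4, 24.7% in 5 to 9, 24.2% in 10 to 19 and 18.5% in 20 or more. The gene body of 473 genes held no 36-mer found once in the genome, so a short read inside it could not be placed by itself. In the flanks of 250 bp on each side, 412 genes held no repeated 36-mer, and they had a ranked summit at 58.3% and a thresholded one at 24.8%. The 68 genes with over 90% but not all of their flanking 36-mers unique had 36.8% and 20.6%, and the 132 genes with at most 90% had 45.5% and 14.4%. Among the 412 genes the thresholded share was 33% on X and 18.5% on the autosomes. How reads that match more than 1 site were placed is not stated in the labels or headers, and the part of mappability in the other values was not tested.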

How the data were processed

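The deposited files are peak lists on build ce11, made by the authors from 2 replicates. Per the labels, chromatin was sonicated and immunoprecipitated with an anti-GFP antibody. The aligner, the peak caller and the placement of reads with several matches remain not given in the sources used here. Peak signal and the −log10 of the IDR are the authors' values, as deposited. Read counts are not in the lists, so depth is unknown. The 4 further signal columns of each ranked series list name no sample and were left unused.

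A thresholded summit is a peak in the deposited thresholded series list of 677 peaks, each with a −log10 IDR of at least 2. Of 8504 ranked peaks 8486 were nuclear, and of the thresholded ones 660. Genes came from Ensembl release 115, and isotypes from the RefSeq annotation for 607 genes (5 had none). Anticodons were read by script, and fit the isotype at 598 genes. Distance runs from the summit to the gene interval and is 0 inside it. Replicate summits were paired within 100 bp of pooled ones. Shares have 95% Wilson intervals. Pairing and anticodon calls were tested on simulated data. Python 3.11.15, numpy 2.4.6, pandas 2.3.3, scipy 1.17.1 and matplotlib 3.10.9 were used.

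Members, lists and comparisons were chosen with earlier results of these data known. Genes named are the 15 strongest thresholded ones, 1 per summit, the strongest of each isotype, those nearest the window edge, clusters of at least 4 genes and the largest families; others are named as exceptions or examples after their values were seen. Alternatives were windows of 200 and 1000 bp, other lists, each replicate's own list, the stronger part of the thresholded list, genes with a B box and other cluster distances.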

Additional observations from a re-analysis of the deposited data

How the results depend on the processing

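Of 60 alternative values 55 stayed close to the reported one and 5 moved. Close meant within 1.5 times for counts, within the 95% interval for differences in share and within the spread of the replicates for medians. No difference in share changed direction, while counts and signal medians, which are always positive, could not do so. The number of tRNA genes with a thresholded summit was between 101 and 144 (reported 135), and with a ranked summit between 294 and 418 (reported 325). The difference between X and the autosomes in thresholded share, 12.6 percentage points, was between 8.43 and 17.3, the lowest outside the left part of each chromosome, an alternative added after seeing the data. The difference between clustered and single genes was -2.85 percentage points when clusters were defined at 500 bp, against -10.4, and otherwise between -16.1 and -4.79. That between intronic and other genes, -3.57 with an interval of -10.0 to 3.06, was between -8.89 and -0.091. The replicate correlation was 0.698 over thresholded summits, against 0.804, and the cause was not tested. The median pooled signal of 68.6 was between 26.4 and 30.8 in the replicates' own lists, which have another scale. The median offset of 21.5 bp was between 18.5 and 22.5 bp in them. No paired analysis was possible because the study has 1 group.

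Shares count peaks that the authors' ranking called, and with no read counts and no control analysed here, a gene without a summit is one where none was detected, not one shown to lack SOX-2.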
